A study of Mus musculus with 16 samples.

Results

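The transcripts described are those of the mouse mitochondrial genome: every gene of the deposited count table whose name starts with mt-, which came to 37 of 48795 genes. They comprise 2 ribosomal RNAs (rRNA), 22 transfer RNAs (tRNA) and 13 protein-coding genes. They were measured by bulk sequencing of ribosome-depleted RNA from whole mouse striatum in 16 libraries, 4 in each of 4 groups. WT_tdT mice were wild type and received a tdTomato virus, and WT_hM4D mice were wild type and received a virus for hM4Di, an engineered inhibitory receptor. KO_tdT and KO_hM4D mice received the same viruses and carried a knockout of Sapap3 (current symbol Dlgap3), a scaffold protein of corticostriatal synapses. The adeno-associated viruses were injected into the striatum and the labels place both proteins in astrocytes. The age of the mice is not given in the sources used here, and neither is the promoter that restricts the proteins to astrocytes. All 4 groups were treated with deschloroclozapine (DCZ), the agonist of hM4Di, so none shows the receptor without its agonist. The design asks what the knockout and the astrocyte receptor each change in the striatum.

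The mitochondrial genome is a small circle in many copies per cell, copied and transcribed inside the organelle by nuclear-encoded proteins. Each strand is read by the mitochondrial RNA polymerase as a long precursor in which tRNAs stand between most rRNA and mRNA sequences, and the RNAs are cut apart at the tRNA ends. The rRNAs form the organelle's own ribosome and the tRNAs decode its mRNAs. Every mRNA encodes a subunit of the oxidative phosphorylation machinery, on which neurons rely for most of their ATP.

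Libraries held 129149745 to 180655067 counts. Dlgap3, the check of the genotype labels, lay at 152.9 to 166.6 CPM (counts relative to library size, with TMM factors) in the 8 knockout libraries and at 294.4 to 437 CPM in the 8 wild-type ones. In 4 libraries (WT_tdT 4, WT_hM4D 2, WT_hM4D 4 and KO_tdT 3) Xist and Y-linked transcripts each stood at or above 5% of their highest level, so 1 mouse per library is uncertain there. KO_tdT 4 just missed that limit, with Xist at 59.6% and Y-linked transcripts at 4.92% of their highest level. Its Y-linked level was 7.29 CPM, against at most 0.0934 CPM in KO_hM4D, and the library stays in the fits that leave out the 4. By these transcripts sex also differed between groups, and the model had no term for it. All KO_hM4D libraries had Xist at 29.5 to 47.7 CPM. WT_hM4D 1 and 3 had Xist at 1.95 and 1.25 CPM and Y-linked transcripts at 142 CPM each. KO_tdT 1 and 2 had Xist at 0 and Y-linked transcripts at 143.2 and 142 CPM. Differences of KO_hM4D from WT_hM4D and KO_tdT cannot be fully told apart from sex, and those from WT_hM4D not at all without the 4. For WT_hM4D 2, 3 and 4, 1 label field named the knockout group, while the title, the genotype and Dlgap3 (413.8, 376.6 and 346.5 CPM) gave wild type. Libraries 3 and 4 of both hM4Di groups stood apart in mitochondrial mRNA, as described below, and the results that rest on them are given with and without them. In bulk tissue, fewer cells of a type and less RNA per cell cannot be told apart.

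Several mitochondrial genes have near-identical copies in the nuclear genome, which bears on what their counts can mean. GENCODE M21 (build GRCm38) places 7 unprocessed pseudogenes on the minus strand of chromosome 1 between 24611535 and 24616197, in the order of the mitochondrial genes from mt-Co1 to mt-Nd4. The first bases of 3 of the pairs are printed because they show how little sequence separates a member from its copy. All are 150 bases from the GENCODE M21 transcripts, 5′ to 3′, and capitals mark the bases that differ within a pair. The pair from the start of Gm29216 is mt-Co1 at chrM:6381-6530 on the + strand and Gm29216 at chr1:24616048-24616197 on the - strand.
mt-Co1: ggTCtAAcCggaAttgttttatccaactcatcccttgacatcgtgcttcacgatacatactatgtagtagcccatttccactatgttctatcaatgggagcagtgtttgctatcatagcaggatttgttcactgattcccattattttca
Gm29216: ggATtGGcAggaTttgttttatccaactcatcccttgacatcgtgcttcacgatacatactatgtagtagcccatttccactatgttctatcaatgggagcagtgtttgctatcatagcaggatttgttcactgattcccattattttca
The pair for mt-Nd3 is chrM:9459-9608 on the + strand and, in Gm28438, chr1:24612970-24613119 on the - strand.
mt-Nd3: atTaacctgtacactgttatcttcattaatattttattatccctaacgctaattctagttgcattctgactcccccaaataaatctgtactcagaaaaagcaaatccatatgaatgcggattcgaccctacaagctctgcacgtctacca
Gm28438: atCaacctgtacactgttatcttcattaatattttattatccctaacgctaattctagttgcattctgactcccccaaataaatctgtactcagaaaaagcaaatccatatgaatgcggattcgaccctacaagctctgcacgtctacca
For mt-Co2 at chrM:7013-7162 on the + strand, the copy Gm28661 had the same 150 bases, so 1 line stands for both.
mt-Co2: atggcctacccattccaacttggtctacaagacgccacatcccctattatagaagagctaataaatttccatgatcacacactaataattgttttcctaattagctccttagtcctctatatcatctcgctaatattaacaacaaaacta
In these stretches the mt-Co1 pair differed at 6 bases, all near the start, the mt-Nd3 pair at 1 base and the mt-Co2 pair at 0.

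Over the whole copies, Gm28661 (mt-Co2), Gm10925 (mt-Atp6), Gm28437 (mt-Co3), Gm10222 (mt-Nd4l) and Gm28439 (mt-Nd4) matched the member with 0 mismatches over 681, 678, 783, 294 and 876 bases. Gm28438 (mt-Nd3) had 1 mismatch in 345 bases and Gm29216 (mt-Co1) had 6 in 492. Every 50-base window of each member was searched for in all other GENCODE M21 transcripts, 141730 in number, on both strands. The share of windows found elsewhere was 100% for mt-Co2, 99.9% for mt-Co3, 99.5% for mt-Atp6, 98.8% for mt-Nd4l and 98.0% for mt-Nd3. It was 62.2% for mt-Nd4, 51.1% for mt-Co1, 8.19% for mt-Nd2, 7.61% for mt-Nd5, 1.04% for mt-Rnr2 and 0 for the other members. The search covered annotated transcripts only. The pseudogenes themselves carried counts, 93.3 to 123.5 CPM summed over the 7 in each library. How reads that match both places were counted is not given in the sources used here, so the levels of the 7 members with copies are uncertain as levels.

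The tRNA genes are short enough to show whole. The 6 that follow are among those described in the comparisons, with the anticodon in capitals, from GENCODE M21. They are mt-Tw (tryptophan, chrM:4950-5016, + strand), mt-Ti (isoleucine, chrM:3706-3774, + strand), mt-Tq (glutamine, chrM:3772-3842, - strand), mt-Tp (proline, chrM:15356-15422, - strand), mt-Ty (tyrosine, chrM:5260-5326, - strand) and mt-Tt (threonine, chrM:15289-15355, + strand).
mt-Tw: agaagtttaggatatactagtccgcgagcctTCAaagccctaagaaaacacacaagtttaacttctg
mt-Ti: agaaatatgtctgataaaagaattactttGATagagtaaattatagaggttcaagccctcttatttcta
mt-Tq: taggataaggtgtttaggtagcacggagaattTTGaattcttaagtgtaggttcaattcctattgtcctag
mt-Tp: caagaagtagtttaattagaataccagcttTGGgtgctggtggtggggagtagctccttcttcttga
mt-Ty: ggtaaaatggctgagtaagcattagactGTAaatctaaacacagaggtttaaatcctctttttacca
mt-Tt: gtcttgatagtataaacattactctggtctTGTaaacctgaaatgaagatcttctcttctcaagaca

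The mitochondrial genome gave 10.1 to 12.3% of all counts per library, and the widest 95% Wilson interval of such a share was 0.011 percentage points (this and later intervals and floors on counts cover counting error only). Ribosomal RNA made up 67.1 to 74.0% of the mitochondrial counts, protein-coding RNA 26.0 to 32.9% and tRNA 0.0169 to 0.0218%. The large rRNA mt-Rnr2 (chrM:1094-2675), which forms the core of the large ribosomal subunit, was the most counted gene in all 16 libraries, with 65610 to 79550 CPM and 6.57 to 7.83% of all counts. The small rRNA mt-Rnr1 (chrM:70-1024) ranked 3 in every library, at a mean of 7099 CPM, and mt-Rnr2 gave 9.58 to 11.5 counts for each of its counts. Per kilobase, the mean levels were 45750 for mt-Rnr2 and 7433 CPM per kb for mt-Rnr1. The library kit removes rRNA, per the labels' protocols, so these levels are what remained after removal.

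Protein-coding members had levels in a high and a low range. The high range held 6 at 722.6 CPM per kb or more, and 7 were at 53.7 CPM per kb or less. mt-Co1 (chrM:5328-6872), the catalytic subunit of cytochrome c oxidase (complex IV), ranked 2 in all libraries and had a mean of 14310 CPM per kb. Its counts were 61.5 to 66.7% of all protein-coding mitochondrial counts. It was followed by the complex I subunit mt-Nd1 (chrM:2751-3707) with 5156, the complex III subunit mt-Cytb (chrM:14145-15288) with 2963, and the complex I subunits mt-Nd2 (chrM:3914-4951) with 1392, mt-Nd4 (chrM:10167-11544) with 1143 and mt-Nd5 (chrM:11742-13565) with 722.6 CPM per kb. The ranges of mt-Co1, mt-Nd1, mt-Cytb and mt-Nd2 over the 16 libraries did not overlap, although those of mt-Nd1 and mt-Cytb came close (3546 to 6185 and 2132 to 3539 CPM per kb), whereas the ranges of mt-Nd2 (884.5 to 1743) and mt-Nd4 (815.4 to 1353 CPM per kb) overlapped.

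The low range held the other complex IV subunits, mt-Co3 (chrM:8607-9390) at 53.7 and mt-Co2 (chrM:7013-7696) at 44.9 CPM per kb. It also held the complex I subunits mt-Nd6 (chrM:13552-14070) at 49.4, mt-Nd3 (chrM:9459-9806) at 14.7 and mt-Nd4l (chrM:9877-10173) at 2.08 CPM per kb. The ATP synthase subunits mt-Atp8 (chrM:7766-7969) and mt-Atp6 (chrM:7927-8607) had 31.8 and 27.5 CPM per kb. mt-Nd6 is the only protein-coding member on the light strand. The library ranges of mt-Co3 (43.1 to 63.8), mt-Nd6 (33.9 to 65.1) and mt-Co2 (36.6 to 52.1 CPM per kb) overlapped, so their order is not set beyond the spread. Of these 7 low members, the 5 with 98.0 to 100% of windows in another transcript are mt-Co2, mt-Co3, mt-Atp6, mt-Nd3 and mt-Nd4l. Their copies had counts of the same order: Gm10925 had 1.22 counts for each count of mt-Atp6, Gm10222 had 0.934 for each of mt-Nd4l, and Gm28437 had 0.52 for each of mt-Co3. For the highly counted mt-Co1 and mt-Nd4, the copies had 0.00133 and 0.00361 counts for each count of the member. The 5 low members with copies summed to a mean of 97.3 CPM, where all protein-coding members summed to 34910 CPM. The unknown handling of shared reads therefore also bears on the share of mt-Co1 and on the protein-coding sums below.

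The other low members, mt-Nd6 and mt-Atp8, shared no window with an annotated transcript. mt-Atp8 overlaps mt-Atp6 by 43 bases, and it begins in the 230 bases between mt-Co2 and mt-Atp6. On chromosome 1 the copies of these neighbours stand 233 bases apart with 0 annotated genes between them, and that interval was not searched. The strand setting of the counting is not given in the sources used here, which leaves mt-Nd6, whose gene overlaps the end of mt-Nd5 on the opposite strand, uncertain.

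**Figure D1:**
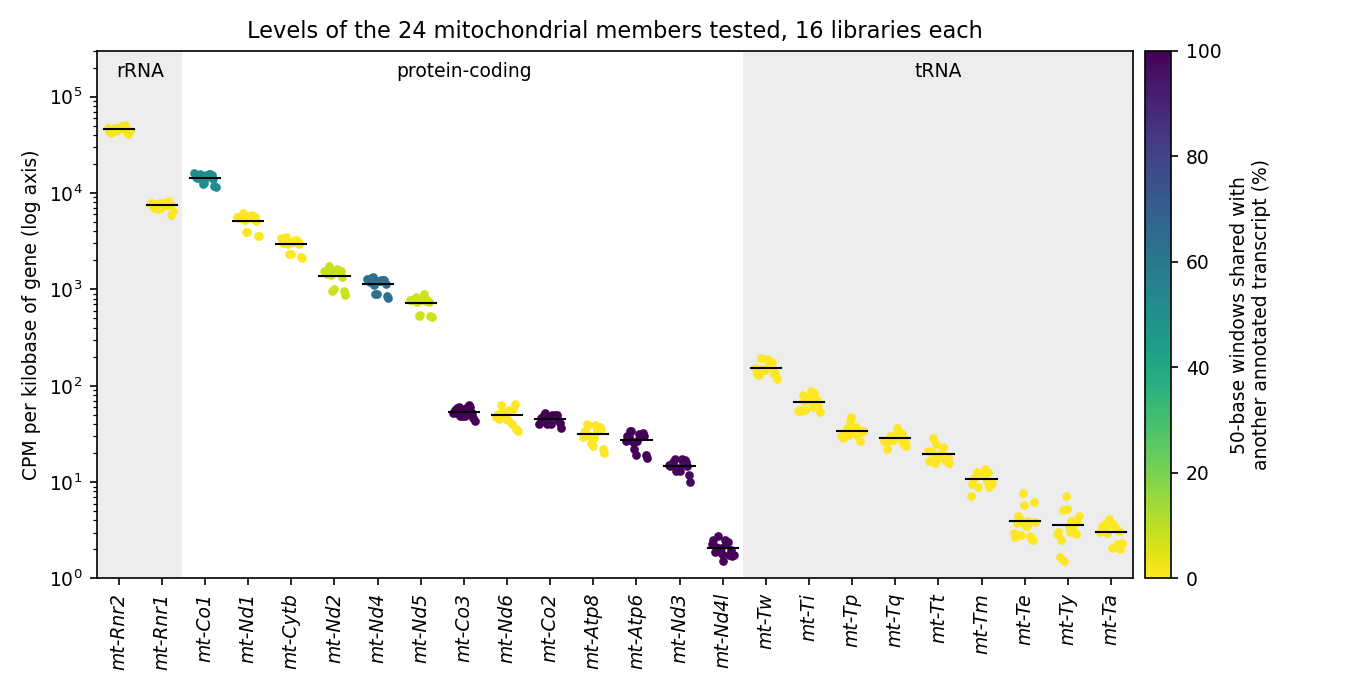
Level of each of the 24 tested mitochondrial members in CPM per kilobase on a log axis, with a dot for each of the 16 libraries, a black line for the mean, and colour for the percentage of its 50-base windows found in another annotated transcript. mt-Rnr2 stands highest at a mean of 45750 and mt-Co1 next at 14310, while mt-Co2, mt-Co3, mt-Atp6, mt-Nd3 and mt-Nd4l, with 98.0 to 100% of windows shared, have means of 2.08 to 53.7 CPM per kb.

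Few tRNA members had many counts. Of the 22, 9 passed the filter on low counts, 4 had counts but did not pass, and 9 were at 0 in every library, where 3 counts in a library correspond to 0.0166 to 0.0232 CPM. The highest means were those of mt-Tw at 10.3, mt-Ti at 4.68 and mt-Tp at 2.28 CPM. The lowest of those tested were mt-Te (glutamate, chrM:14071-14139) at 0.273, mt-Ty at 0.241 and mt-Ta (alanine, chrM:5018-5086) at 0.208 CPM. Between them stood mt-Tq at 2.02, mt-Tt at 1.31 and mt-Tm (methionine, chrM:3845-3913) at 0.751 CPM. Among the untested, mt-Ts1 had 59 counts over all libraries, and mt-Tl1, mt-Tn and mt-Tc had 1 count each. All 9 at 0 (mt-Tf, mt-Tv, mt-Td, mt-Tk, mt-Tg, mt-Tr, mt-Th, mt-Ts2 and mt-Tl2) lie on the heavy strand, as do 14 of the 22.

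The position of a tRNA gene went with whether it had counts, with exceptions. Each of the 9 tested tRNA genes had, on at least 1 side, 70 or more bases with no other mitochondrial gene on its strand, or no further gene on that strand. Of the 9 at 0, 7 had at most 3 such bases on both sides. The others were mt-Td, with 69 bases before it, and mt-Tf, the first gene of the sequence, which has no gene before it on its strand and so meets the same description as the tested genes. mt-Ts1, with few counts, was a further exception, with 1543 and 6613 free bases on its strand and 59 counts. How reads spanning several genes were counted is not given in the sources used here.

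The summed classes were compared between the groups as levels, without a test. Summed protein-coding level was 37230 ± 1420 CPM in WT_tdT, 33130 ± 5020 in WT_hM4D, 37810 ± 1030 in KO_tdT and 31460 ± 5390 in KO_hM4D (mean ± SD, n = 4 each). The SD of each hM4Di group was larger than that of each tdTomato group, and the ranges of all 4 groups overlapped. Summed rRNA was 77160 ± 3960, 79350 ± 3050, 83030 ± 2350 and 78370 ± 6880 CPM in the same order. Summed tRNA was 19.9 ± 1.17, 23.3 ± 2.55, 24.4 ± 1.41 and 20.5 ± 2.63 CPM, and here KO_tdT (22.6 to 26.1) lay wholly above WT_tdT (18.8 to 21.3). As shares of mitochondrial counts, the tRNAs of these groups overlapped (0.01853 to 0.02125% and 0.01689 to 0.01862%). The rRNA share did not overlap, at 67.87 to 70.24% in KO_tdT and 67.06 to 67.78% in WT_tdT. Nor did the related protein-coding counts per 100 rRNA counts, at 42.34 to 47.32 and 47.51 to 49.1. The mitochondrial share of all counts was 11.46 ± 0.603, 11.38 ± 0.494, 11.98 ± 0.24 and 10.92 ± 1.01%.

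In each hM4Di group, libraries 3 and 4 had the lowest mitochondrial mRNA of the study. WT_hM4D 3 and 4 had 29090 and 29320 CPM, and KO_hM4D 3 and 4 had 27250 and 26590 CPM, against 34380 to 39710 CPM in the other 12 libraries. These 4 also had the highest rRNA shares of mitochondrial counts (73.9, 72.5, 72.3 and 74.0%, against 67.1 to 70.2%) and the fewest protein-coding counts per 100 rRNA counts (35.3, 37.9, 38.2 and 35.2, against 42.3 to 49.1). mt-Co1 took 66.7, 66.6, 66.6 and 66.5% of their protein-coding counts, against 61.5 to 63.5% elsewhere. They were the 4 lowest libraries for 8 of the 13 protein-coding members: mt-Nd1, mt-Nd2, mt-Co1, mt-Atp8, mt-Atp6, mt-Nd4, mt-Nd5 and mt-Cytb. As a set they were not the 4 lowest for either rRNA, for any of the 9 tested tRNAs, or for mt-Co2, mt-Co3, mt-Nd3, mt-Nd6 and mt-Nd4l. KO_hM4D 3 and 4 were still both among the 4 lowest for mt-Rnr1, mt-Rnr2, mt-Co3, mt-Nd3, mt-Nd6 and mt-Nd4l. WT_hM4D 4 was among them for mt-Co3.

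Some other measures of these 4 libraries lay outside the range of the other 12, and others within it. Summed nuclear-retained RNAs, 9 long noncoding RNAs held in the nucleus, were 1600 CPM in WT_hM4D 3 and 1586 CPM in KO_hM4D 4, below the 1630 to 2242 CPM of the 12, and 1714 and 1718 CPM in WT_hM4D 4 and KO_hM4D 3. Summed microglial markers were 583.5 and 574.7 CPM in WT_hM4D 3 and 4, above the 447.8 to 570.8 CPM of the 12, and 532.6 and 531.1 CPM in KO_hM4D 3 and 4. Red blood cell markers summed to 53.6 and 60.5 CPM in KO_hM4D 3 and 4, below the 62.0 to 123.6 CPM of the 12. Ependymal and choroid plexus markers summed to 44.0 CPM in WT_hM4D 4, above 23.8 to 38.7. Regulators of mitochondrial biogenesis summed to 249.8 and 245.1 CPM in WT_hM4D 3 and KO_hM4D 3, below 250.8 to 307.5. Mitochondrial RNA processing genes summed to 923.7 and 914.9 CPM in WT_hM4D 3 and 4, above 862.5 to 914.7. Mitochondrial transcription and DNA maintenance genes summed to 241.3 CPM in WT_hM4D 3, above 222.9 to 240.9. In these lists the libraries not named lay within the range. Nuclear genes of the respiratory chain, 74 in number, summed to 9689 CPM in WT_hM4D 3, above the 8413 to 9624 CPM of the 12, and to 9152, 8912 and 9108 CPM in WT_hM4D 4, KO_hM4D 3 and KO_hM4D 4. The depths of the 4 lay within the range of the 12, and models that collect reads of nuclear rRNA summed to 101.9 to 106.2 CPM, within 74.4 to 125.6. The upper end of that range was WT_hM4D 2 alone, and the next highest of the 12 was WT_tdT 1 at 102.7 CPM. KO_hM4D 3, KO_hM4D 4 and WT_hM4D 3 lay above it (106.2, 105.1 and 104.3 CPM) and WT_hM4D 4 just below (101.9 CPM). The labels give no batch, extraction day or RNA quality, and the part of these measures in the low mRNA was not tested.

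**Figure D2:**
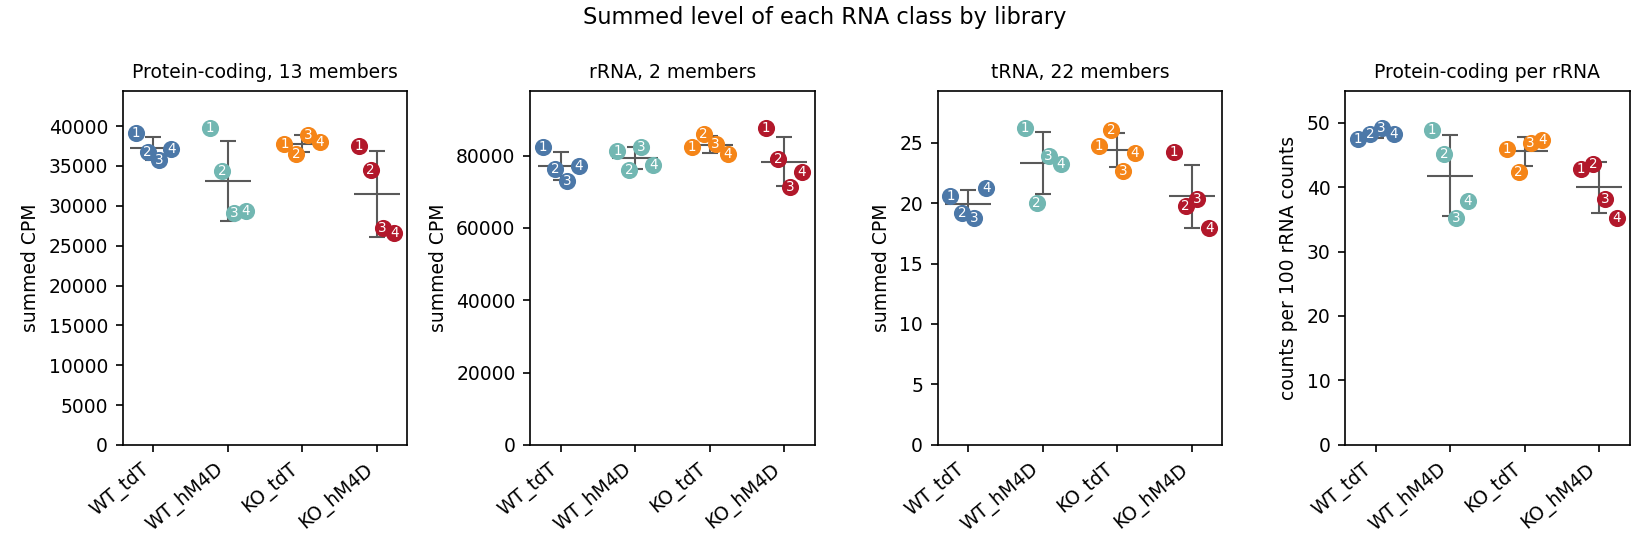
Summed CPM of the 13 protein-coding, 2 rRNA and 22 tRNA members, and protein-coding counts per 100 rRNA counts, by group, with a numbered dot for each library and bars for the mean ± SD (n = 4). In the protein-coding panel, libraries 3 and 4 of WT_hM4D (29090 and 29320 CPM) and of KO_hM4D (27250 and 26590 CPM) lie below all others, while the rRNA panel does not set them apart.

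The 24 members that passed the filter were tested with all 20825 genes that did, in 4 pairwise comparisons and their interaction, with edgeR's quasi-likelihood test and Benjamini-Hochberg adjustment. All adjusted p below are from this test. KO_tdT and WT_tdT, and both hM4Di groups, each serve in 2 of the pairwise comparisons, so the results share libraries and are given side by side only.

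With the knockout under tdTomato (KO_tdT against WT_tdT), mRNA levels lay close to the wild-type ones and a few tRNAs had higher values, none past the threshold. At an adjusted p under 0.05, 0 of 24 members were called, where 0.0384% of all genes tested were. At an unadjusted p under 0.05 there were 2 members with edgeR (8.69% of all genes) and 2 with DESeq2 (1924 of 20825 genes). Of the 24, 8 had a negative log2 change, with a median of 0.05 beside -0.00 over all genes. In 3 members the groups did not overlap, where 4.09% of all genes had no overlap in either direction. All 3 were higher in the knockout, where 2.05% of all genes were higher without overlap. Without WT_tdT 4, 4 members were negative, and without KO_tdT 1 there were 5. Without WT_tdT 3 only 1 had an unadjusted p under 0.05 (2212 of 21058 genes).

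Those 3 members are tRNAs. mt-Tw read 10.3, 8.95, 8.78 and 8.72 CPM in WT_tdT 1 to 4 and 12.7, 12.2, 10.5 and 11.5 CPM in KO_tdT 1 to 4. WT_tdT 1 came nearest to the knockout libraries. The log2 change of mt-Tw was 0.35 (SE 0.119, 95% interval 0.10 to 0.60, edgeR adjusted p 0.437). mt-Tq read 1.91, 1.93, 1.57 and 1.91 CPM in WT_tdT and 2.07, 2.56, 2.44 and 2.04 CPM in KO_tdT. Its log2 change was 0.32 (SE 0.114, 95% interval 0.08 to 0.56, edgeR adjusted p 0.460), and the groups were separated by a gap smaller than the range within either. mt-Ty, with 0.196, 0.204, 0.112 and 0.166 CPM in WT_tdT and 0.231, 0.206, 0.263 and 0.238 CPM in KO_tdT, had a log2 change of 0.47 and an interval of -0.25 to 1.20.

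The next members by p overlapped between the groups. mt-Ti read 3.75, 3.91, 3.81 and 5.59 CPM in WT_tdT and 4.95, 6.09, 4.17 and 5.74 CPM in KO_tdT, with a log2 change of 0.30 (interval -0.03 to 0.62). Only WT_tdT 4 reached the knockout range, and without it the log2 change was 0.45. mt-Tp had a log2 change of 0.16 (interval -0.11 to 0.42) and mt-Rnr2 one of 0.11 (interval -0.08 to 0.30). The 13 protein-coding members had log2 changes from -0.08 (mt-Nd6, interval -0.46 to 0.30) to 0.06 (mt-Co2, interval -0.16 to 0.28). In mt-Co1 the mean ± SD over 4 libraries was 23210 ± 1120 CPM for wild type and 23740 ± 813 CPM for knockout, and the interval of its log2 change was -0.19 to 0.25.

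The receptor in wild-type mice (WT_hM4D against WT_tdT) came with lower values of protein-coding members and higher values of tRNAs, and none passed the threshold. edgeR called 0 of 24 members, where 0.0864% of all genes were called. An unadjusted p under 0.05 was reached by 2 (11.1% of all genes), as with DESeq2 (2389 of 20825 genes). The log2 change was negative in all 13 protein-coding members and mt-Rnr1, and positive in all 9 tRNAs and mt-Rnr2. With DESeq2 size factors and with scaling from other genes only, 14 of 24 were negative, as in the fit reported. Scaling to the summed mitochondrial mRNA sets the mRNA sum to no change by construction. Under it 7 of the 24 were negative and all genes shifted by a median of 0.19. There 7 in place of 2 members had an unadjusted p under 0.05, and so did 2891 of 20825 genes. In the fit reported the median over the members was -0.03 beside 0.00 over all genes. Without the 4 libraries lowest in mitochondrial mRNA, 7 members were negative and 1 had an unadjusted p under 0.05 (911 of 21207 genes). Without the 4 of mixed Xist and Y-linked transcripts, 8 were negative and 5 had such a p (2038 of 21318 genes). The count of 2 at an unadjusted p under 0.05 was 8 without WT_hM4D 1, 4 without WT_hM4D 2 and 1 without WT_hM4D 3. Over all genes such a p was reached by 2354 of 21120, 3299 of 21105 and 1404 of 21043 in these fits. In 1 member, mt-Tq, all WT_hM4D libraries (2.16, 1.96, 1.96 and 2.19 CPM) were above all WT_tdT libraries (1.91, 1.93, 1.57 and 1.91 CPM), where 3.64% of all genes were higher without overlap and 6.83% had no overlap in either direction.

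The tRNA mt-Tp had the smallest p. It read 2.02, 1.94, 2.12 and 2.14 CPM in WT_tdT and 2.44, 2.04, 2.92 and 3.16 CPM in WT_hM4D, so that 3 of 4 libraries lay above all controls and WT_hM4D 2 among them. Its log2 change was 0.36 (SE 0.124, interval 0.10 to 0.63, edgeR adjusted p 0.295). mt-Tw read 13.1, 9.95, 10.1 and 9.79 CPM in WT_hM4D, with a log2 change of 0.22 (interval -0.03 to 0.47), and WT_hM4D 1 was far above the other 3. Without it the log2 change was 0.11. mt-Ty had the other p under 0.05 at a level below 1 CPM. It read 0.344, 0.102, 0.475 and 0.351 CPM in WT_hM4D, with WT_hM4D 2 below all WT_tdT libraries and the rest above them. The log2 change of mt-Ty was 0.93 (SE 0.330, interval 0.23 to 1.63, edgeR adjusted p 0.320). Without WT_hM4D 2 it was 1.21 (SE 0.226, edgeR adjusted p 0.0452), and without WT_hM4D 3 it was 0.66 (adjusted p 0.772).

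Among mRNAs, those of smallest p were mt-Nd4, mt-Cytb and mt-Nd5. mt-Nd4 read 1761, 1728, 1636 and 1802 CPM in WT_tdT and 1864, 1537, 1225 and 1250 CPM in WT_hM4D. Its log2 change was -0.24 (SE 0.136, interval -0.52 to 0.05, edgeR adjusted p 0.549). The libraries of WT_hM4D lay on either side of the controls, with 1 above all of them and 3 below. mt-Cytb read 3956, 3793, 3503 and 3724 CPM in WT_tdT and 4049, 3418, 2637 and 2663 CPM in WT_hM4D, a log2 change of -0.23 (interval -0.53 to 0.06). mt-Nd5 read 1419, 1425, 1404 and 1458 CPM in WT_tdT and 1511, 1364, 971.2 and 987.4 CPM in WT_hM4D, a log2 change of -0.24 (interval -0.55 to 0.07). Without WT_hM4D 1 each of the 3 was -0.37, and without WT_hM4D 3 or without WT_hM4D 4 mt-Cytb and mt-Nd5 were each -0.15. Without the 4 libraries lowest in mitochondrial mRNA, the log2 changes of mt-Nd4, mt-Cytb and mt-Nd5 were -0.03, -0.00 and 0.01. Those libraries were chosen by their mRNA values, so their removal moves such differences toward 0 by construction.

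**Figure D3:**
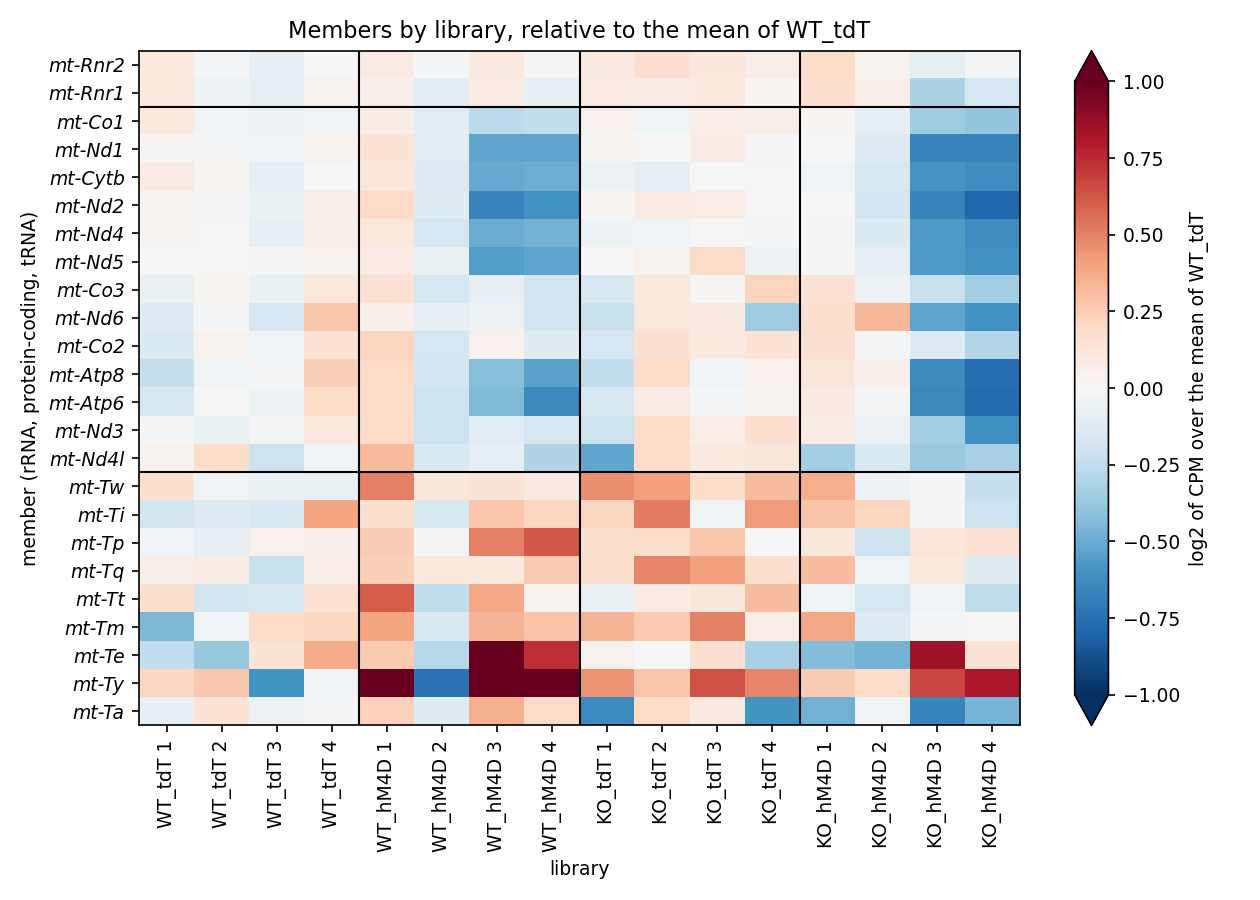
Log2 of each tested member's CPM over its WT_tdT mean, for 24 members and 16 libraries, with the colour scale limited to -1 to 1. The mRNA members mt-Nd1, mt-Nd2, mt-Nd4, mt-Nd5 and mt-Cytb are below 0 in libraries 3 and 4 of both hM4Di groups, where mt-Nd1 reads 3732 and 3744 CPM in WT_hM4D and 3393 and 3400 CPM in KO_hM4D beside a WT_tdT mean of 5392 CPM.

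The receptor in knockout mice (KO_hM4D against KO_tdT) came with lower values of most members, again with none past the threshold. edgeR called 0 of 24 members, where 0.0048% of all genes were called. An unadjusted p under 0.05 was reached by 7 members (11.1% of all genes), all lower (5.59% of all genes were lower at that p). With DESeq2 it was reached by 9 members (2435 of 20825 genes), and 0 were called. The 7 are mt-Tw, mt-Nd2, mt-Nd5, mt-Nd1, mt-Co1, mt-Tq and mt-Nd4. The log2 change was negative in 22 of 24 members, with a median of -0.23 beside 0.00 over all genes, and the exceptions were mt-Te and mt-Ty. With DESeq2 size factors and with scaling from other genes only, 22 of 24 were negative. Of the members, 8 and 6 had an unadjusted p under 0.05 (2297 and 2293 of 20825 genes). Scaling to the summed mitochondrial mRNA sets the mRNA sum to no change by construction. Under it 10 of 24 were negative, all genes shifted by a median of 0.30, and 0 members had an unadjusted p under 0.05. In 0 members did the groups not overlap, where 4.88% of all genes did not.

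mt-Tw read 12.7, 12.2, 10.5 and 11.5 CPM in KO_tdT and 11.9, 8.88, 9.13 and 7.83 CPM in KO_hM4D. KO_hM4D 1 lay within the KO_tdT range and the other 3 below it. Its log2 change was -0.31 (SE 0.119, interval -0.56 to -0.06, edgeR adjusted p 0.388). mt-Nd2 read 1611, 1681, 1664 and 1586 CPM in KO_tdT and 1596, 1394, 998.7 and 918.1 CPM in KO_hM4D, a log2 change of -0.41 (SE 0.176, interval -0.79 to -0.04, edgeR adjusted p 0.422). mt-Nd1 read 5496, 5380, 5689 and 5326 CPM in KO_tdT and 5364, 4944, 3393 and 3400 CPM in KO_hM4D, a log2 change of -0.36 with an SE of 0.156 (edgeR adjusted p 0.428). In both mRNAs KO_hM4D 1 was at the KO_tdT level, KO_hM4D 2 somewhat lower and KO_hM4D 3 and 4 far lower.

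The same order of libraries held for mt-Nd5 and mt-Co1. mt-Nd5 read 1429, 1462, 1626 and 1380 CPM in KO_tdT and 1416, 1340, 960.9 and 937.2 CPM in KO_hM4D, a log2 change of -0.34 (SE 0.147, interval -0.65 to -0.03, edgeR adjusted p 0.425). mt-Co1 read 23860, 22560, 24360 and 24180 CPM in KO_tdT and 23650, 21730, 18140 and 17680 CPM in KO_hM4D, a log2 change of -0.23 (SE 0.103, interval -0.45 to -0.01, edgeR adjusted p 0.435). The rRNAs had intervals that included 0: -0.27 to 0.11 for mt-Rnr2 and -0.32 to 0.08 for mt-Rnr1. Single libraries moved the count of 7: 12 members had an unadjusted p under 0.05 without KO_hM4D 1, 1 without KO_hM4D 3 and 0 without KO_hM4D 4, and 1 without KO_tdT 3 and 2 without KO_tdT 2. It was 4 without WT_hM4D 2, WT_tdT 2 or WT_tdT 4. Of the 21035 to 21118 genes tested in these fits, 1602 (without KO_hM4D 4) to 2619 (without KO_hM4D 1) had such a p. Without the 4 libraries lowest in mitochondrial mRNA, the log2 changes of mt-Nd2, mt-Nd5, mt-Nd1 and mt-Co1 were -0.13, -0.09, -0.08 and -0.06, and that of mt-Tw was -0.17, with 18 of 24 members negative and 1 at an unadjusted p under 0.05. Without the 4 libraries of mixed Xist and Y-linked transcripts, 21 were negative and 2 had such a p (1608 of 21318 genes). Without the 4 lowest in mitochondrial mRNA, 2112 of 21207 genes had such a p. Markers of red blood cells moved with this comparison: all 5 were lower in KO_hM4D (median log2 change -0.44, 4 of 5 at an unadjusted p under 0.05, 0 called by edgeR or DESeq2, 53.6 to 123.6 CPM summed over all libraries), and their part in the result was not tested.

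The knockout under hM4Di (KO_hM4D against WT_hM4D) had negative log2 changes in all 24 members, mostly small, and none passed the threshold. edgeR called 0 members, where 0.0192% of all genes were called. An unadjusted p under 0.05 was reached by 3 (12.7% of all genes), as with DESeq2 (2824 of 20825 genes). The median log2 change was -0.10 beside -0.01 over all genes. The shared sign rested on single libraries: 13 members were negative without WT_hM4D 1, 16 without KO_hM4D 4 and 17 without KO_hM4D 3. All 24 were negative with DESeq2, with its size factors, with scaling from other genes only and with a replicate block. Relative to the summed mitochondrial mRNA, 15 were negative and 0 had an unadjusted p under 0.05. Without the 4 libraries lowest in mitochondrial mRNA, 14 were negative and 0 had an unadjusted p under 0.05. The first sets the mRNA sum to no change by construction, and the second drops libraries chosen by their mRNA values. The count of 3 at that p was 1 without KO_hM4D 2 or without WT_hM4D 3, and 1 when only these groups were fitted. It was 2 without KO_hM4D 4, WT_hM4D 1 or WT_hM4D 4. Of the 20127 to 21132 genes tested in these fits, 1371 (without KO_hM4D 2) to 2899 (only these groups) had such a p. In 0 members did the groups not overlap, where 6.09% of all genes did not.

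The 3 members are tRNAs. mt-Tp read 2.44, 2.04, 2.92 and 3.16 CPM in WT_hM4D and 2.21, 1.77, 2.23 and 2.27 CPM in KO_hM4D, a log2 change of -0.32 (SE 0.124, interval -0.58 to -0.05, edgeR adjusted p 0.340). mt-Tt read 1.92, 1.06, 1.65 and 1.29 CPM in WT_hM4D and 1.23, 1.11, 1.23 and 1.06 CPM in KO_hM4D, a log2 change of -0.35 (SE 0.159, interval -0.69 to -0.01, edgeR adjusted p 0.376). In both, WT_hM4D 2 lay within the knockout range and the other 3 libraries of WT_hM4D above all of it. mt-Ta, at a mean of 0.208 CPM, had a log2 change of -0.58 with an SE of 0.212 (edgeR adjusted p 0.332). mt-Tw, mt-Nd3 and mt-Tq followed with log2 changes of -0.18, -0.14 and -0.10, and intervals of -0.44 to 0.07, -0.43 to 0.14 and -0.34 to 0.14. Leaving out 1 library gave -0.31 (KO_hM4D 1) to -0.07 (WT_hM4D 1) for mt-Tw, -0.26 (KO_hM4D 1) to -0.03 (KO_hM4D 4) for mt-Nd3 and -0.19 (KO_hM4D 1) to -0.05 (KO_hM4D 4) for mt-Tq, and without WT_hM4D 1 that of mt-Tt was -0.20. mt-Co1 had an interval of -0.28 to 0.16 and mt-Rnr2 one of -0.20 to 0.17.

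**Figure D4:**
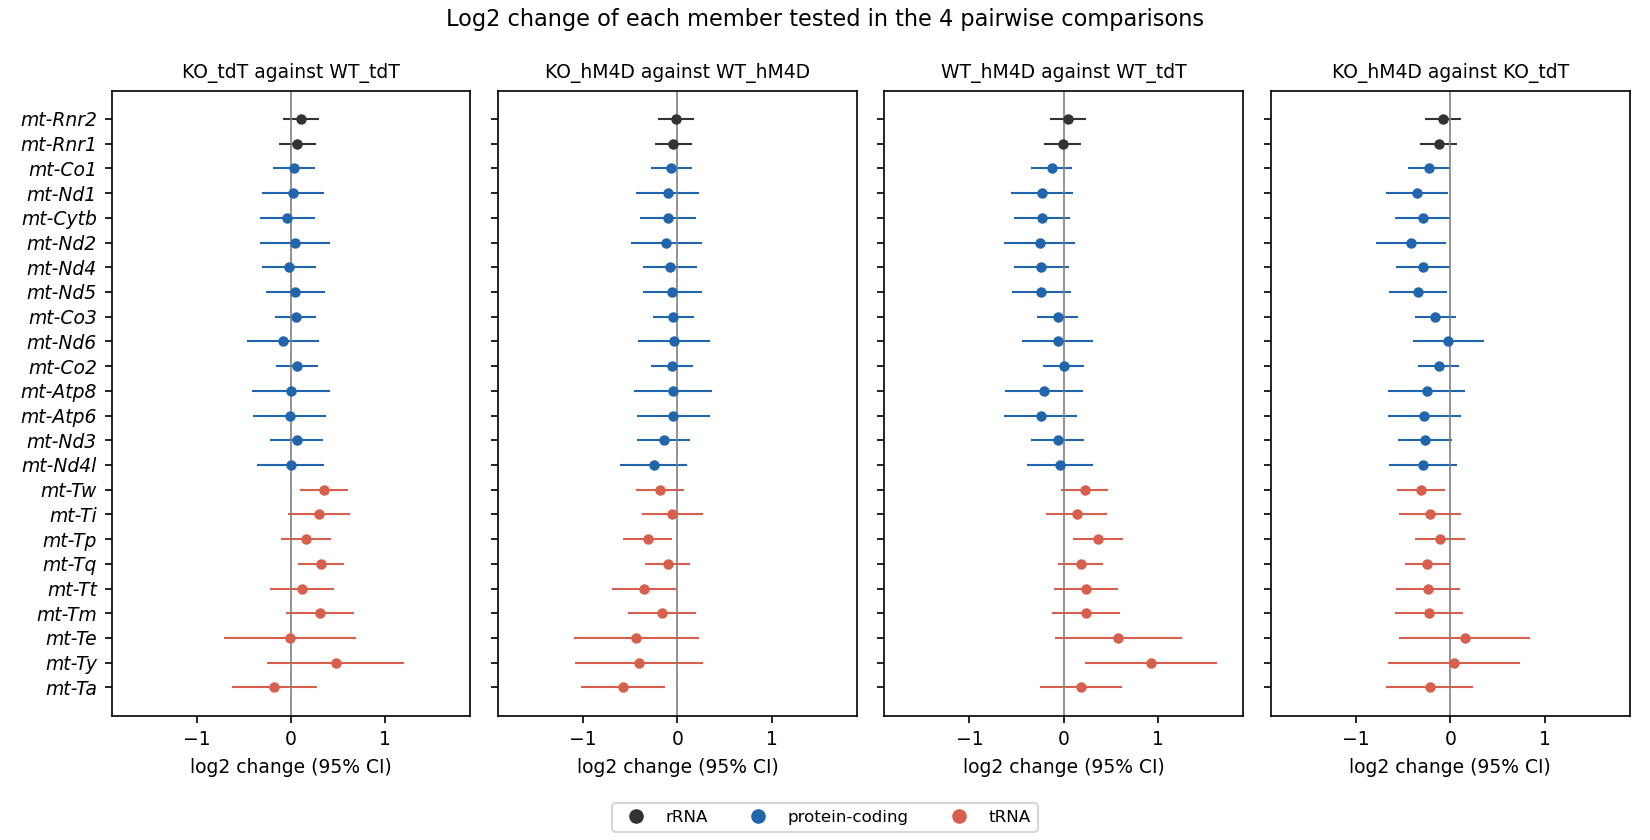
Log2 change of each of the 24 tested members in the 4 pairwise comparisons, with the edgeR estimate as a point and its 95% interval as a bar. In KO_hM4D against KO_tdT the intervals of 7 members (mt-Tw, mt-Nd2, mt-Nd5, mt-Nd1, mt-Co1, mt-Tq and mt-Nd4) lie below 0, and no member has an adjusted p under 0.05 in any of the 4.

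The interaction asks whether the receptor's effect differs between knockout and wild type. edgeR called 0 members and 0 genes of all tested (0%), and DESeq2 called 0 members and 12 genes. An unadjusted p under 0.05 was reached by 3 members with edgeR (6.77% of all genes) and 4 with DESeq2 (1494 of 20825 genes). The log2 difference was negative in 23 of 24 members, mt-Nd6 being the exception, with a median of -0.14. It was negative in 18 of 24 relative to the summed mitochondrial mRNA, a scaling that sets the mRNA sum to no change by construction. Without the 4 libraries lowest in mitochondrial mRNA 19 were negative and 1 had such a p (957 of 21207 genes). Such a p was reached by 6 members without WT_hM4D 2 (2572 of 21105 genes) and by 5 without WT_tdT 4 (1432 of 21092). Without the 4 libraries of mixed Xist and Y-linked transcripts it was also reached by 5 (2115 of 21318 genes). The 3 members are tRNAs: mt-Tw at -0.53 (SE 0.168, interval -0.89 to -0.18, edgeR adjusted p 0.658), mt-Tp at -0.47 (SE 0.176, adjusted p 0.673) and mt-Tq at -0.42 (SE 0.161, adjusted p 0.683). In mt-Tw the group means ran from 9.19 ± 0.757 in WT_tdT to 10.7 ± 1.57 in WT_hM4D, and from 11.7 ± 0.985 in KO_tdT to 9.42 ± 1.71 CPM in KO_hM4D (SD, n = 4). mt-Tt and mt-Ti followed at -0.47 and -0.35, with intervals of -0.95 to 0.01 and -0.81 to 0.11. For mt-Nd1 and mt-Co1 the interaction intervals were -0.59 to 0.34 and -0.41 to 0.21.

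Nuclear genes that serve the mitochondrial genome were read beside the members, and 0 were called by edgeR in any of the 5 comparisons. The lists covered 19 genes of transcription and DNA maintenance, 10 regulators of biogenesis, 40 of RNA processing and stability, 74 respiratory chain subunits and 77 mitochondrial ribosomal proteins, all tested. Over these 220 genes, an unadjusted p under 0.05 was reached by 13 in KO_tdT against WT_tdT (5.91%, and 8.69% of all genes), 16 in WT_hM4D against WT_tdT (7.27 and 11.1%), 40 in KO_hM4D against KO_tdT (18.2 and 11.1%), 5 in KO_hM4D against WT_hM4D (2.27 and 12.7%) and 8 in the interaction (3.64 and 6.77%). DESeq2 called 5 (2.27%, where it called 124 or 0.595% of all genes), all in KO_hM4D against KO_tdT: the mitochondrial DNA polymerase Polg and the ribosomal proteins Mrpl1, Mrpl40, Mrpl57 and Mrps31. With edgeR, Polg had a log2 change of 0.21 (adjusted p 0.281) and the ribosomal proteins had -0.15, -0.25, -0.15 and -0.18 (adjusted p 0.283, 0.197, 0.281 and 0.281). Polrmt, the mitochondrial RNA polymerase, had log2 changes of 0.04 in KO_tdT against WT_tdT, 0.05 in WT_hM4D against WT_tdT, 0.11 in KO_hM4D against KO_tdT and 0.09 in KO_hM4D against WT_hM4D. Tfam, which packages the genome and starts transcription, had 0.08, 0.05, -0.04 and -0.01 in the same order. Lrpprc and Slirp form a complex that stabilises mitochondrial mRNAs. Lrpprc had -0.02, 0.02, -0.01 and -0.04, and Slirp had 0.11, 0.04, -0.18 (edgeR adjusted p 0.421) and -0.11.

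The larger lists had small shifts. Nuclear respiratory chain subunits had a positive log2 change in 68 of 74 in KO_tdT against WT_tdT (median 0.06, 2 at an unadjusted p under 0.05) and a negative one in 50 of 74 in KO_hM4D against KO_tdT (median -0.04, 14 at that p). Mitochondrial ribosomal proteins had a positive change in 60 of 77 (median 0.05, 6 at that p) and a negative one in 49 of 77 (median -0.03, 15 at that p) in the same comparisons. In WT_hM4D against WT_tdT, where all 13 mitochondrial mRNAs were negative, 47 of 74 nuclear subunits were positive, with a median of 0.04. The interaction was negative in 65 of 74 nuclear subunits (median -0.08, 1 at that p). It was negative in 59 of 77 mitochondrial ribosomal proteins (median -0.05, 6 at that p).

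All 14 markers of striatal projection neurons, the main neurons of the tissue, were measured, and they summed to 3881 to 6957 CPM in each library. They were negative in 13 of 14 in KO_hM4D against WT_hM4D and in KO_hM4D against KO_tdT (median log2 change -0.24 and -0.15). In KO_tdT against WT_tdT 11 of 14 were negative (-0.21), and in WT_hM4D against WT_tdT 10 of 14 (-0.11). Of these, 1 had an unadjusted p under 0.05 with edgeR, in KO_tdT against WT_tdT, and 0 were called. Markers of other cell types moved with some of the comparisons as well. Neurons of thalamus, septum and pallidum, which border the striatum, had 14 of 15 markers positive in KO_tdT against WT_tdT (median log2 change 0.87, 7 at an unadjusted p under 0.05, 0 called by edgeR and 2 by DESeq2), with summed levels of 428.2 to 827 CPM over all libraries. Microglial markers were positive in 9 of 10 in WT_hM4D against WT_tdT (median 0.19, 8 at that p, 0 called by edgeR and 1 by DESeq2). Ependymal and choroid plexus markers were positive there in 10 of 10 (median 0.25, 1 at that p, 0 called by edgeR and 1 by DESeq2). Cortical excitatory neuron markers were negative there in 10 of 10 (median -0.19, 0 at that p). In KO_hM4D against WT_hM4D, where all 24 members were negative, oligodendrocyte markers were negative in 10 of 10 (median -0.42, 2 at that p) and red blood cell markers in 5 of 5 (median -0.42, 4 at that p). The latter summed to 53.62 to 69.64 CPM in KO_hM4D and 69.65 to 100.9 CPM in WT_hM4D, so the ranges all but met. Microglial markers were negative in 10 of 10 in KO_hM4D against WT_hM4D (median -0.11, 2 at that p). Astrocyte markers were negative in 6 of 12 (6 at that p, 7 with DESeq2) and cortical excitatory neuron markers positive in 10 of 10 (median 0.49, 4 at that p). None of these was called by edgeR or DESeq2. In the interaction the 5 red blood cell markers were negative as well (median -0.59, 4 at that p). The part of these marker levels in the values of the mitochondrial members was not tested. Gfap, an astrocyte filament gene, was the only marker called by edgeR, in WT_hM4D against WT_tdT, at a log2 change of 1.33 (edgeR adjusted p 0.00107). DESeq2 called Gfap there and in KO_hM4D against KO_tdT.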

How the data were processed

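Whole-striatum RNA of 16 mice was purified on columns and made into stranded libraries after rRNA removal, per the labels' protocols. Raw read counts per gene and library came as 1 table that the authors deposited. The submitters' processing notes name bcl2fastq 2.17, STAR, HTSeq and the builds GRCm38 and mm10. The treatment of reads with several matches is not given in the sources used here, and neither are the strand setting and the annotation release.

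The deposited counts were tested with edgeR 4.0.16 (R 4.3.3). Of 48795 genes, 20825 passed filterByExpr, used by group. After TMM scaling, 1 quasi-likelihood model with a term for each group took in the 16 libraries (common dispersion 0.0162, 12 residual degrees of freedom). Its F tests were two-sided, Benjamini-Hochberg adjustment ran over every gene tested, and the threshold was 0.05. The SE is the size of the log2 change divided by the square root of F, and intervals are 95%. The fits were tested on simulated counts with known changes. Library totals were 129149745 to 180655067 counts. The labels state 4 mice per group, and libraries with both Xist and Y-linked transcripts may not be 1 mouse each.

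All 37 members matched GENCODE M21 (GRCm38) by identifier and strand, which gave coordinates, lengths and sequences. Shared windows were found by exact match, and pairs were aligned with Biopython 1.88.

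The members, gene lists and tests were chosen with earlier results of these data known. Named members were those called and, where fewer than 5 were, the 5 of smallest p whose mean reached 1 CPM in either group, with the level of every rRNA and mRNA and of the 3 highest and 3 lowest tRNAs. Members named outside that rule, among them mt-Ty and mt-Ta below 1 CPM and the intervals of mt-Co1, mt-Rnr1, mt-Rnr2, mt-Nd1, mt-Nd6 and mt-Co2, were chosen after their values were seen. Alternatives were DESeq2 1.42.0 and its size factors, no filter, only the groups compared, a replicate block, other scalings, libraries left out and counts of nuclear copies added. Replicate numbers recur in each group. Same-numbered libraries did not deviate together in every pair of groups, so the numbers were not taken to pair the mice. Between the hM4Di groups, however, the correlation was positive at each number (0.287, 0.152, 0.0911 and 0.133). Libraries 3 and 4 of both were also lowest in mitochondrial mRNA. A shared batch is not given in the labels, and a pairing of these groups alone was not fitted.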

Additional observations from a re-analysis of the deposited data

Results flagged for a closer look

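Single libraries stood far from the other 3 of their group in 7 of 124 sets of 4 values that were looked at, and chance gives about 1 in 20. mt-Nd4l, a complex I subunit, was at 0.455 CPM in KO_tdT 1 and at 0.699 to 0.740 CPM in the other KO_tdT libraries. mt-Ti was at 5.59 CPM in WT_tdT 4, against 3.75 to 3.91 CPM. mt-Tp was at 1.77 CPM in KO_hM4D 2, against 2.21 to 2.27 CPM. mt-Tq was at 1.57 CPM in WT_tdT 3, against 1.91 to 1.93 CPM. mt-Tw was at 10.3 CPM in WT_tdT 1, against 8.72 to 8.95 CPM, and at 13.1 CPM in WT_hM4D 1, against 9.79 to 10.1 CPM. The tRNA share of mitochondrial counts was 0.0181% in WT_hM4D 2 (95% Wilson interval 0.0174 to 0.0188%), against 0.0214 to 0.0218%.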

How the results depend on the processing

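The number of members called was 0 in every comparison and in 128 of 129 combinations of a comparison and an alternative, the exception being 1 member (mt-Ty) in WT_hM4D against WT_tdT without WT_hM4D replicate 2 (0 to 1 over the fits that leave out 1 library). Named members were chosen for small p, and many alternatives drop a library outside the pairwise comparison, which hardly moves its estimates. With that limit, of 645 log2 changes of named members under alternatives, 642 kept their direction. mt-Co1 in KO_hM4D against KO_tdT became 0.0452 relative to the mitochondrial mRNA total (the scaling itself sets the mRNA sum to no change), and mt-Nd3 in KO_hM4D against WT_hM4D and mt-Nd5 in WT_hM4D against WT_tdT became 0.0158 and 0.0102 without the 4 libraries lowest in mitochondrial mRNA, an alternative chosen after seeing the data, as was adding the nuclear copies' counts.

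Genes called over the whole table depended on the fit, in the order KO_tdT against WT_tdT, KO_hM4D against WT_hM4D, WT_hM4D against WT_tdT, KO_hM4D against KO_tdT and interaction, with 8, 4, 18, 1 and 0 in the fit reported. DESeq2 called 62, 83, 256, 124 and 12, and edgeR on only the 2 groups compared called 1, 7, 49 and 0. Without libraries holding both Xist and Y-linked transcripts the counts were 1, 1, 1, 0 and 1, and without the 4 libraries lowest in mitochondrial mRNA 2, 1, 0, 0 and 0. Scaling from other genes gave 2 in KO_hM4D against WT_hM4D. Leaving out 1 library gave 2 to 32, 1 to 9, 6 to 65, 0 to 8 and 0 to 4. With a replicate block the counts were 9, 4, 13, 0 and 0, with 0 members called. In WT_hM4D against WT_tdT, 6 in place of 2 members then had an unadjusted p under 0.05 (2349 of 20825 genes). Same-numbered libraries correlated above 0.1 in all 4 pairs in no comparison. In KO_hM4D against WT_hM4D all 4 were positive (0.287, 0.152, 0.0911 and 0.133), with 1 short of that limit. The cause of these differences was not tested.

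Without the rRNA members, the mitochondrial share of counts was 4.05, 3.64, 4.09 and 3.39% in WT_tdT, WT_hM4D, KO_tdT and KO_hM4D, and the tRNA share of the remaining mitochondrial counts 0.0535, 0.0713, 0.0646 and 0.0659%, by construction. Depth limits the tRNAs most: summed tRNA counts were 2578 to 4222 per library.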
